A study of Mus musculus with 7 samples.

Results

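10 genes are described here across pressure-loaded and control hearts: Pde1a, Pde1c, Pde2a, Pde3a, Pde3b, Pde4b, Pde4d, Pde5a, Pde9a and Pde10a, which encode cyclic nucleotide phosphodiesterases. They were taken by symbol from a table of 23847 gene rows, where each of the 10 symbols stands on 1 row, and 9 of the 10 passed the filter on low values. The tissue was ventricle of male mice. In 3 trans-aortic banding (TAB) samples a suture had been tied around the aorta, which raises the load on the left ventricle, and in 4 Sham samples the aorta was exposed but not constricted. Surgery was at 8 weeks of age, and every sample carries an age label of 12 weeks. The labels name no strain. Each library carries its own code, with the TAB codes all numbered before the Sham codes, but no label says that a code stands for an animal. The p-values therefore rest on the spread among 7 libraries that may be partly technical.

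Cyclic AMP and cyclic GMP are messenger nucleotides that carry adrenergic, nitric oxide and natriuretic peptide signals inside cardiac cells. Phosphodiesterases end these signals by hydrolysing the nucleotides, and each enzyme family does so with its own substrate preference, regulation and place in the cell. In heart muscle, cyclic AMP acts through protein kinase A on contraction and calcium cycling, while cyclic GMP acts through protein kinase G, and several of these enzymes are drug targets.

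Values are FPKM, fragment counts scaled by transcript length and library depth, a scale that allows levels of different genes to be set side by side. Whole-fragment steps among low values put the depth at about 11000000 to 12300000 fragments per library. By that estimate 1 FPKM on a transcript of 2 kb rests on about 22 to 24.6 fragments. The estimate is rough. Per library 21 to 29 values stood at 1 fragment, and 61.3% to 71.8% of low values lay within 5% of whole fragments. Fold changes are log2 differences of FPKM + 1, TAB minus Sham, with their standard error (SE), and they understate changes of low genes. All 6 pressure load genes checked (Nppa, Nppb, Myh7, Acta1, Ankrd1 and Postn) were called higher in TAB, with no overlap between the groups. Leaving out a single library ended the call of Nppa in each case except Sham 2 (limma adjusted p of 0.0652 to 0.0871). The Nppb call ended without TAB 1 (limma adjusted p = 0.0525). Without both Sham 2 and TAB 3 those of Nppb (0.0930) and Postn (0.0503) were lost, while all 6 log2 fold changes stayed positive in every refit. Myl2, the ventricular myosin light chain, stood at 22240 to 26061 FPKM in TAB and 22000 to 24147 FPKM in Sham. The summed level of the atrial genes Sln, Myl7 and Myl4 was 73.7, 31.9 and 302 FPKM in TAB 1 to 3 and 52.3, 282, 133 and 38.7 FPKM in Sham 1 to 4, so TAB 3 and Sham 2 stood apart. Among the genes refitted without both, lost calls are named with their values. The calls of cell type markers were not refitted.

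Of the 9 tested phosphodiesterase genes 2 differed between TAB and Sham. Pde4d, which encodes an enzyme specific for cyclic AMP, fell by 21.8%, and Pde9a, which encodes an enzyme specific for cyclic GMP, was 1.61-fold higher. Over all 11601 tested genes 20.3% were called (limma, Benjamini-Hochberg adjusted p under 0.05), 13.3% higher and 7.05% lower, so 2 of 9 is a share near the background. Those 1542 higher and 818 lower genes became 1126 and 1190 after median-of-ratios rescaling, and 1045 and 1225 after quantile normalization. The TAB and Sham libraries did not overlap in 3 of the 9 genes, namely Pde9a (higher in TAB), Pde4d and Pde4b (both lower in TAB), beside 31.1% of all tested genes (19.9% higher and 11.2% lower in TAB). The median log2 fold change was -0.06 over the 9 genes and 0.05 over all tested genes.

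**Figure D1:**
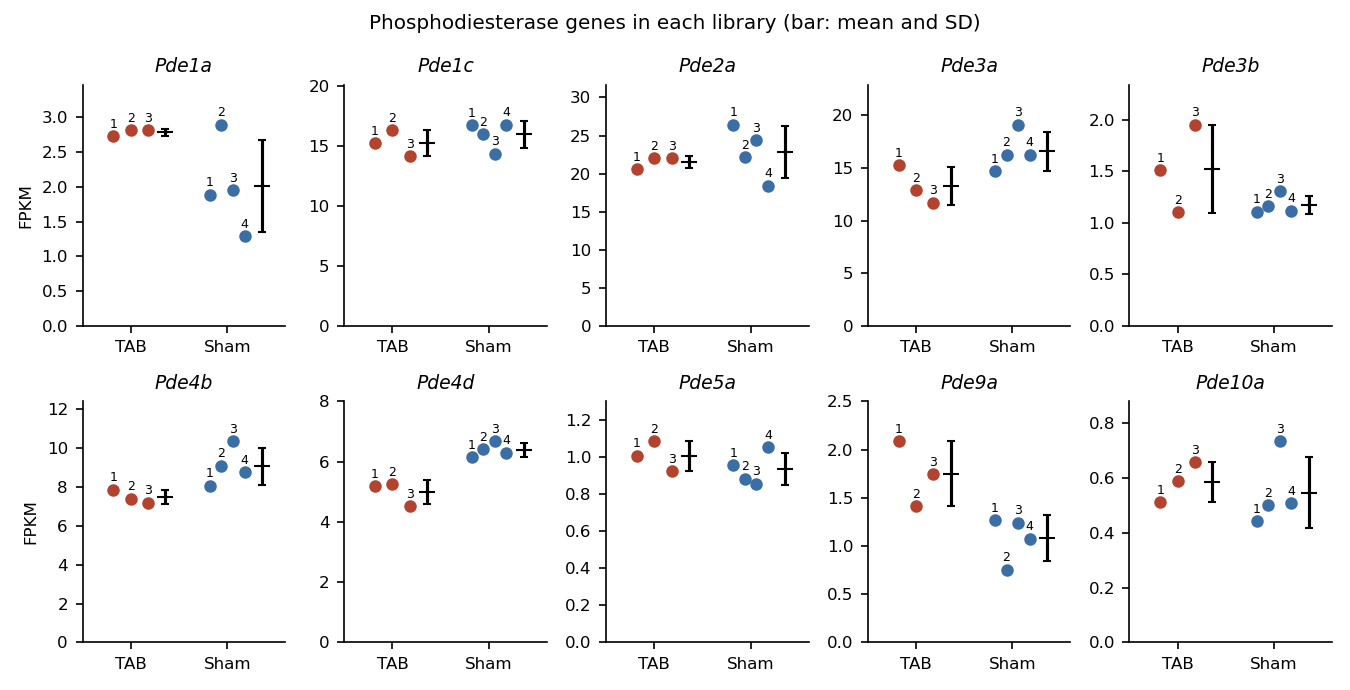
FPKM of each of the 10 phosphodiesterase genes (vertical axes, from 0, each with its own range) in the 3 TAB libraries and the 4 Sham libraries; points are libraries labelled with their replicate number, and bars give the mean and SD of a group. In Pde4d the TAB libraries (4.53 to 5.26) lie below all Sham libraries (6.15 to 6.68), and in Pde9a they lie above (1.42 to 2.09 in TAB, 0.754 to 1.27 in Sham).

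The levels of the 10 genes spanned more than an order of magnitude. 3 stood at the top in both groups: Pde2a (21.5 FPKM in TAB, 22.9 FPKM in Sham), Pde1c (15.3 FPKM in TAB, 16.0 FPKM in Sham) and Pde3a (13.3 FPKM in TAB, 16.6 FPKM in Sham). In TAB the order was Pde2a, Pde1c, Pde3a, Pde4b, Pde4d, Pde1a, Pde9a, Pde3b, Pde5a and Pde10a, and neighbours whose libraries overlapped were Pde1c and Pde3a, and Pde9a and Pde3b. In Sham Pde3a stood above Pde1c and Pde3b above Pde9a, and the ranges of Pde2a and Pde3a, Pde3a and Pde1c, Pde1a and Pde3b, Pde3b and Pde9a, and Pde9a and Pde5a overlapped. Pde10a was the lowest in both groups.

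The enzymes that hydrolyse both nucleotides (Pde1a, Pde1c, Pde2a, Pde3a, Pde3b and Pde10a) made up 78.3% ± 0.642 of the summed FPKM of the 10 genes in TAB (SD, n = 3) and 77.2% ± 1.28 in Sham (SD, n = 4), with overlapping libraries. The cyclic AMP-specific pair Pde4b and Pde4d made up 17.3% to 18.1% in TAB and 18.3% to 21.1% in Sham. The cyclic GMP-specific pair Pde5a and Pde9a made up 4.30%, 3.53% and 3.94% in TAB 1 to 3 and 2.86%, 2.15%, 2.59% and 2.97% in Sham 1 to 4. Neither of these pairs of genes had TAB and Sham shares that overlapped, and the shares are a description without a test. The shares depend on which genes are among the 10. On average the 10 held 60.2% of the summed FPKM of all 21 catalytic phosphodiesterase genes in TAB and 59.8% in Sham. All 8 cyclic AMP-specific genes of the family, including Pde4a, Pde7a and Pde8a, averaged a summed 57.5 FPKM in TAB and 65.8 FPKM in Sham. The sum of all 21 genes averaged 116 FPKM in TAB and 128 FPKM in Sham. Summed over the 10 genes, the FPKM was 72.0, 70.9 and 67.7 in TAB 1 to 3 and 77.7, 76.1, 81.0 and 71.6 in Sham 1 to 4, where TAB 1 lies above Sham 4.

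**Figure D2:**
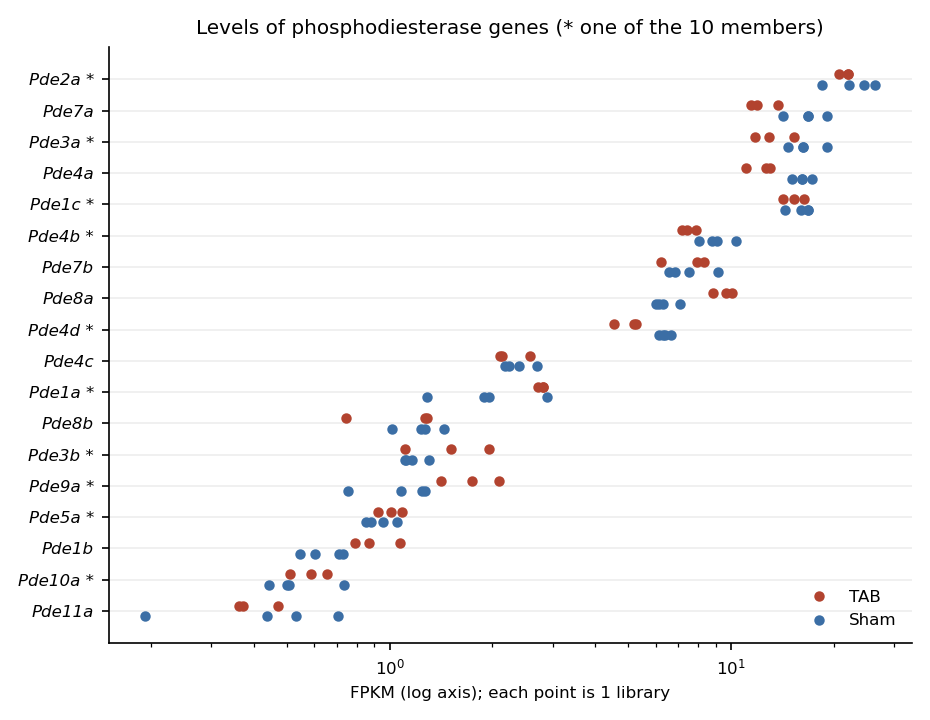
FPKM (log axis) of phosphodiesterase genes in each of the 3 TAB libraries and 4 Sham libraries, ordered by their Sham mean; an asterisk marks the 10 genes described, and the 3 Pde6 genes, all under 0.04 FPKM, are not drawn. Pde2a, Pde7a, Pde3a, Pde4a and Pde1c form the top of the family, and Pde8a and Pde4d show TAB libraries apart from Sham libraries in opposite directions.

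The PDE4 enzymes are specific for cyclic AMP and are bound to anchoring proteins at defined places in the cardiomyocyte, such as the ryanodine receptor and the adrenergic receptors. Pde4d (chr13:108654177-109955969, plus strand, mm10) had 5.19, 5.26 and 4.53 FPKM in TAB 1 to 3, against 6.15, 6.41, 6.68 and 6.30 FPKM in Sham 1 to 4. All TAB libraries lay below all Sham libraries, and TAB 3 was the lowest. The means were 4.99 ± 0.403 FPKM in TAB (SD, n = 3) and 6.39 ± 0.224 FPKM in Sham (SD, n = 4), and limma gave a log2 fold change of -0.30 ± 0.07 (SE, 95% interval -0.45 to -0.15, adjusted p = 0.0113). The call stood with any 1 library left out (adjusted p from 0.0160 to 0.0464), and it was lost without both Sham 2 and TAB 3, which leaves 2 TAB and 3 Sham libraries (log2 fold change -0.24, adjusted p = 0.0878).

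Pde4b (chr4:102254742-102607262, plus strand), the PDE4 gene that also serves in immune cells, had 7.86, 7.40 and 7.19 FPKM in TAB 1 to 3, against 8.06, 9.09, 10.3 and 8.77 FPKM in Sham 1 to 4. The groups did not overlap, though TAB 1 and Sham 1 lay close together. The log2 fold change was -0.24 ± 0.08 (SE), with an adjusted p of 0.0515 in limma, just outside the threshold. It passed the threshold without Sham 1 (adjusted p = 0.0297), after quantile normalization (0.0232), after median-of-ratios rescaling (0.0274) and with a stricter filter (0.0440). It lay at 0.144 without TAB 3, at 0.109 without TAB 2 and at 0.216 without both Sham 2 and TAB 3. The ratio of Pde4b to Pde4d was 1.51, 1.41 and 1.59 in TAB 1 to 3 and 1.31, 1.42, 1.55 and 1.39 in Sham 1 to 4, so the balance between both genes overlapped between groups.

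The promoters of Pde4d and Pde4b are shown because these paralogs are the 2 members whose libraries were lower in TAB without overlap. RefSeq gives 20 promoters (250 bases before to 50 after an annotated start, GRCm38.p6) for 7 of the 10 genes, and Pde3a, Pde3b and Pde9a have no entry. Capitals mark TGACG, the core of the cyclic AMP response element, and GGAAA, the core bound by NFAT factors, each searched on both strands, so that their reverse complements CGTCA and TTTCC are marked too. Of the 4 Pde4b promoters the first along the chromosome is printed.
Pde4d promoter, chr13:108653927-108654226, plus strand: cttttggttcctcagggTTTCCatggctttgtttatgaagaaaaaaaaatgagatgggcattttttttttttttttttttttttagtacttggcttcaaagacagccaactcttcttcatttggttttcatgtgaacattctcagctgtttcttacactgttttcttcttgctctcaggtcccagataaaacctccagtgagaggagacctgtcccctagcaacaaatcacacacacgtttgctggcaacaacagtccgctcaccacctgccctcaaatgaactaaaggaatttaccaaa
Pde4b promoter, chr4:102421305-102421604, plus strand: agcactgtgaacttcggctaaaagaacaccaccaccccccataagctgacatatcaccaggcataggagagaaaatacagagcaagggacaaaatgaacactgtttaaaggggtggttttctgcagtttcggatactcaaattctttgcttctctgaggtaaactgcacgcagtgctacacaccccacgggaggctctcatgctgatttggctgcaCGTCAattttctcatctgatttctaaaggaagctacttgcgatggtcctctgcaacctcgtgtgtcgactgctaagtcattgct
The Pde4d promoter held 0 matches to TGACG, and the printed Pde4b promoter held 1. Across the 20 promoters, 3 held TGACG (1 each of Pde1a, Pde2a and Pde4b) and 12 held GGAAA, beside 20.8% and 61.3% of all 32851 mouse promoters in the table. The annotated start in the printed Pde4b promoter lies 166813 bases downstream of the position where the table begins the gene. The full palindromic element TGACGTCA, which contains TGACG, was in 0 of the 20 and in 1.79% of all. A match is a description of the letters and not a site.

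The annotated start in the Pde4d promoter printed above is the position where the deposited table begins the gene. In GENCODE M21 the Pde4d gene starts 204229 bases further upstream, that of Pde4b 167199 bases and that of Pde10a 276373 bases. On the minus strand, where a gene starts at its higher coordinate, Pde1c ends at 56369634 in the table and at 56569103 in GENCODE M21. Whether fragments from those upstream exons were counted is not given in the sources used here.

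PDE3 enzymes hydrolyse cyclic AMP, are inhibited by cyclic GMP and are the target of the inotropic drug milrinone. Pde3a (chr6:141249269-141499351, plus strand), the main cardiac form, had 15.2, 12.9 and 11.7 FPKM in TAB 1 to 3, against 14.7, 16.3, 19.1 and 16.2 FPKM in Sham 1 to 4. TAB 1 lay above Sham 1, so the groups overlapped. The log2 fold change was -0.30 ± 0.10 (SE, 95% interval -0.52 to -0.09) with an adjusted p of 0.0521 in limma, outside the threshold. It passed without TAB 1 (-0.40, adjusted p = 0.0255), without Sham 1 (0.0355), after quantile normalization (0.0325), after median-of-ratios rescaling (0.0304) and with a stricter filter (0.0454), and it lay at 0.239 without both Sham 2 and TAB 3.

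Pde3b (chr7:114415254-114537937, plus strand), the form best known from fat and liver cells, was far lower, at 1.51, 1.11 and 1.95 FPKM in TAB 1 to 3, against 1.11, 1.16, 1.30 and 1.12 FPKM in Sham 1 to 4. The libraries TAB 1 and TAB 3 lay above all Sham libraries, and TAB 2 (1.106 FPKM) just below the lowest of them, Sham 1 (1.107 FPKM). No difference was detected (limma adjusted p = 0.245, log2 fold change 0.20 ± 0.12 SE). The ratio of Pde3a to Pde3b was 10.1, 11.6 and 6.00 in TAB 1 to 3 and 13.3, 14.0, 14.6 and 14.5 in Sham 1 to 4, lower in every TAB library, as a description without a test. Adipocyte markers were near 0, with a highest value of 0.932 FPKM over 6 genes and Ucp1 listed at 0 in all libraries.

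PDE1 enzymes are activated by calcium and calmodulin and hydrolyse both nucleotides. Pde1c (chr6:56069804-56369634, minus strand), the form of cardiomyocytes, had 15.3, 16.3 and 14.1 FPKM in TAB 1 to 3, against 16.8, 16.0, 14.4 and 16.8 FPKM in Sham 1 to 4. The groups overlapped over most of their range, and the 95% interval of the log2 fold change ran from -0.22 to 0.09 (limma adjusted p = 0.570). Pde1a (chr2:79834453-80129412, minus strand), which is also expressed in fibroblasts and smooth muscle, had 2.73, 2.81 and 2.82 FPKM in TAB 1 to 3, against 1.89, 2.89, 1.96 and 1.29 FPKM in Sham 1 to 4. Sham 2 lay above all TAB libraries and the other 3 Sham libraries below them.

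Its log2 fold change was 0.36 ± 0.15 (SE) and was not called (limma adjusted p = 0.116). Without Sham 2 it was 0.49 (adjusted p = 0.0158), and without both Sham 2 and TAB 3 it was 0.48 (adjusted p = 0.0436). Sham 2 was also the Sham library with the highest summed atrial markers (282 FPKM), and the 4 Sham libraries had the same order in both. In TAB the summed atrial markers ran from 31.9 to 302 FPKM, while Pde1a stayed between 2.73 and 2.82 FPKM. The part of atrial tissue in the Pde1a level was not tested. The ratio of Pde1c to Pde1a was 5.60, 5.81 and 5.03 in TAB 1 to 3 and 8.87, 5.53, 7.36 and 13.0 in Sham 1 to 4, where Sham 2 lies within the TAB range.

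Pde2a (chr7:101421691-101512829, plus strand) encodes an enzyme that cyclic GMP stimulates to hydrolyse cyclic AMP and had the highest level of the 10 genes. It had 20.6, 22.0 and 22.0 FPKM in TAB 1 to 3, against 26.4, 22.1, 24.4 and 18.4 FPKM in Sham 1 to 4. The TAB libraries fell inside the Sham range, and the 95% interval of the log2 fold change ran from -0.30 to 0.16 (limma adjusted p = 0.674). Pde10a (chr17:8801745-8986648, plus strand), which encodes an enzyme best known from the striatum of the brain, had 0.512, 0.587 and 0.656 FPKM in TAB 1 to 3, against 0.443, 0.50, 0.733 and 0.508 FPKM in Sham 1 to 4. It did not pass the filter, its groups overlapped, and in a fit with no filter its log2 fold change was 0.04 (limma adjusted p = 0.822).

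PDE9 and PDE5 are specific for cyclic GMP. Pde9a (chr17:31386234-31476309, plus strand) encodes the enzyme with the higher affinity for cyclic GMP, known in cardiomyocytes for acting on the pool that natriuretic peptides raise. It had 2.09, 1.42 and 1.75 FPKM in TAB 1 to 3, against 1.27, 0.754, 1.24 and 1.08 FPKM in Sham 1 to 4. The groups did not overlap, TAB 1 was the highest library and Sham 2 the lowest. The means were 1.75 ± 0.336 FPKM in TAB (SD, n = 3) and 1.09 ± 0.237 FPKM in Sham (SD, n = 4), and limma gave a log2 fold change of 0.40 ± 0.12 (SE, 95% interval 0.13 to 0.66, adjusted p = 0.0385).

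The call of Pde9a was lost without any of 4 single libraries: TAB 1 (log2 fold change 0.31, adjusted p = 0.152), TAB 3 (0.40, 0.0929), Sham 2 (0.32, 0.0824) or Sham 4 (0.40, 0.0664). It was also lost without both Sham 2 and TAB 3 (0.32, adjusted p = 0.161), with no filter (0.0681), after quantile normalization (0.33, 0.0805) and after median-of-ratios rescaling (0.37, 0.0539), while the direction held in each.

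Pde5a (chr3:122729158-122859374, plus strand), the target of sildenafil and a gene of vascular smooth muscle, had 1.01, 1.08 and 0.923 FPKM in TAB 1 to 3, against 0.955, 0.882, 0.855 and 1.05 FPKM in Sham 1 to 4. The groups overlapped, and the 95% interval of the log2 fold change ran from -0.15 to 0.25 (limma adjusted p = 0.737), with the sign turned under quantile normalization (-0.04). The ratio of Pde9a to Pde5a was 2.07, 1.31 and 1.89 in TAB 1 to 3 and 1.33, 0.854, 1.45 and 1.02 in Sham 1 to 4. TAB 2 lies within the Sham range of that ratio.

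**Figure D3:**
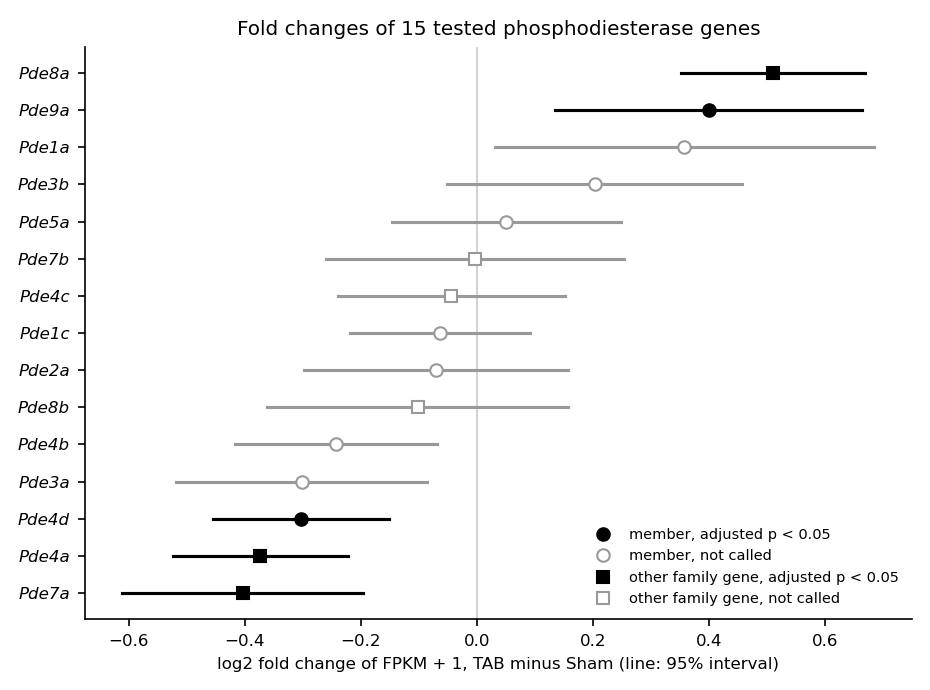
Log2 fold changes of FPKM + 1, TAB minus Sham (horizontal axis), for the 15 phosphodiesterase genes that passed the filter, with 95% intervals as lines; circles are genes of the 10 described, squares are other genes of the family, and black marks an adjusted p under 0.05. Pde9a (0.40) and Pde8a (0.51) lie to the right, and Pde4d (-0.30), Pde4a (-0.37) and Pde7a (-0.40) to the left.

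The family list held 21 catalytic phosphodiesterase genes, and the other 11 are given for context. Of these 6 passed the filter, of which 1 was higher in TAB, 2 were lower and 3 were not called. Pde8a, which encodes a high-affinity enzyme for cyclic AMP, had 10.04, 8.83 and 9.67 FPKM in TAB 1 to 3, against 6.01, 6.31, 6.16 and 7.08 FPKM in Sham 1 to 4, with no overlap (limma log2 fold change 0.51 ± 0.07 SE, adjusted p = 0.000978). Pde4a, the third PDE4 gene of the heart, had 12.6, 13.0 and 11.1 FPKM in TAB 1 to 3, against 15.1, 16.1, 17.2 and 16.1 FPKM in Sham 1 to 4 (-0.37 ± 0.07 SE, limma adjusted p = 0.00403).

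Pde7a, which encodes another cyclic AMP-specific enzyme, had 11.4, 11.9 and 13.7 FPKM in TAB 1 to 3, against 14.1, 16.8, 16.8 and 19.1 FPKM in Sham 1 to 4 (-0.40 ± 0.09 SE, limma adjusted p = 0.0129, and 0.0580 without TAB 1). The ratio of Pde4a to Pde4d stayed between 2.43 and 2.48 in TAB and between 2.45 and 2.57 in Sham. Summed over Pde4a, Pde4b, Pde4c and Pde4d, the FPKM was 27.8, 28.2 and 24.9 in TAB 1 to 3 and 32.0, 34.0, 36.4 and 33.4 in Sham 1 to 4, without overlap. The ratio of Pde8a to Pde7a was 0.705 to 0.878 in TAB and 0.367 to 0.426 in Sham.

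In bulk tissue fewer cells of a type and less RNA per cell cannot be told apart, and marker genes of several cell types moved with the groups. Of 12 fibroblast markers 9 were higher in TAB, with a summed level of 1077 to 1299 FPKM in TAB and 879 to 998 FPKM in Sham. Of 10 smooth muscle and pericyte markers 6 were higher (302 to 341 FPKM in TAB, 263 to 274 FPKM in Sham), of 12 endothelial markers 6 were higher (387 to 428 FPKM in TAB, 332 to 376 FPKM in Sham), and of 12 macrophage and monocyte markers 6 were higher (299 to 368 FPKM in TAB, 266 to 299 FPKM in Sham, where TAB 2 lay below Sham 4). Ms4a7, 1 of these 6, passed the filter only through its TAB libraries (1.80, 2.23 and 2.44 FPKM in TAB 1 to 3, 0.637, 1.19, 0.781 and 1.08 FPKM in Sham 1 to 4). Of 8 cardiomyocyte markers 0 were higher and 4 were lower, while their summed level overlapped (72691 to 79901 FPKM in TAB, 73758 to 79434 FPKM in Sham). Over all tested genes 13.3% were called higher and 7.05% lower. Of 8 lymphocyte markers 0 passed the filter, with Nkg7 the highest at 1.47 FPKM, and of 6 Schwann cell and neuron markers 1 passed, with Th at 0 in all libraries. The part of these cells in the differences of Pde9a, Pde4d, Pde8a, Pde4a and Pde7a was not tested.

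By the profile over the 7 libraries, measured as the root mean square difference of log2 values centred on each gene's Sham mean, Pde3a and Pde4b were the closest pair among the 9 tested genes (0.0769), and Pde4d was closest to Pde4b (0.0813). The search among the other tested genes left out predicted genes, pseudogenes, genes with clone or date names and further rows of a repeated symbol. Of the genes searched, those nearest to Pde4d were Tmem65 (0.0234) and Macrod1 (0.0240). Tmem65 averaged 60.5 FPKM in TAB and 74.5 FPKM in Sham (log2 fold change -0.30), and Macrod1 119 FPKM in TAB and 146 FPKM in Sham (-0.29). Those nearest to Pde9a were Itpkc, an inositol trisphosphate kinase gene (0.0365), and the interferon-inducible Ifi204 (0.0633), with log2 fold changes of 0.42 and 0.43. Ifi204 has close paralogs that can share reads, so its value is less certain, and its call was lost without TAB 1 (limma adjusted p = 0.0538) and without both Sham 2 and TAB 3 (0.0859). The call of Itpkc was lost under 7 of the 16 other settings that tested it (adjusted p up to 0.130), namely without TAB 1, TAB 3, Sham 2, Sham 4 or both Sham 2 and TAB 3, with no filter and after quantile normalization.

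**Figure D4:**
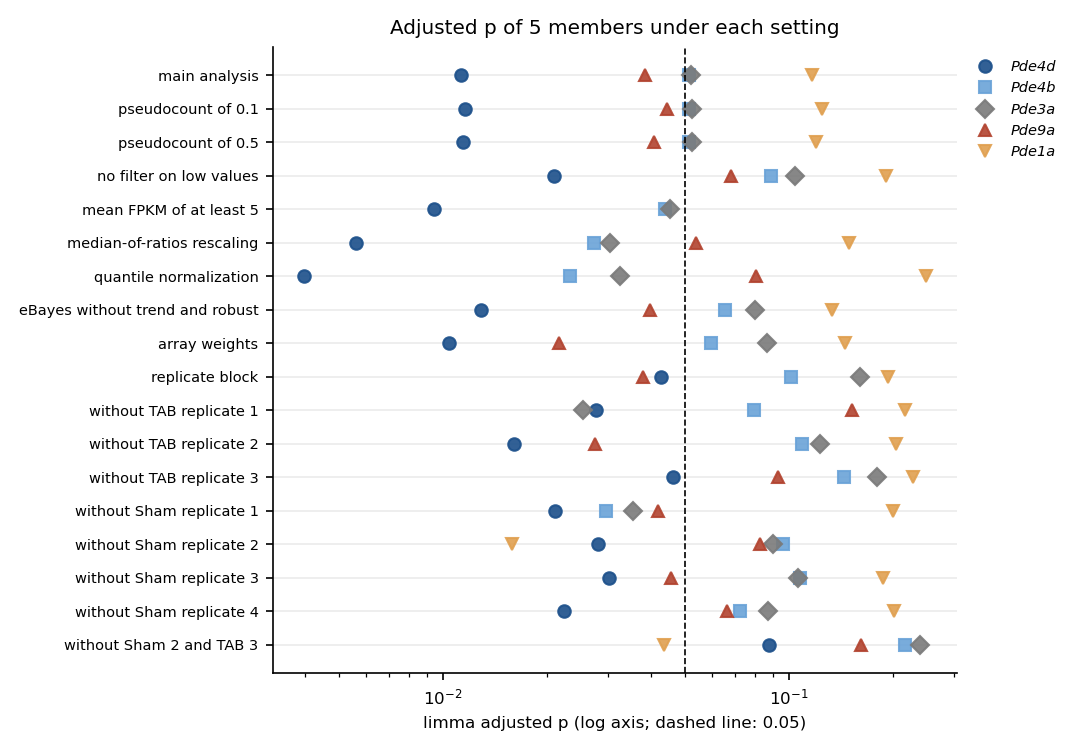
Limma adjusted p (log axis, dashed line at 0.05) of Pde4d, Pde4b, Pde3a, Pde9a and Pde1a in the main analysis and under 17 other settings (rows). Pde9a and Pde1a have no symbol at a mean FPKM of at least 5, where they were not tested. Pde4d lies left of the line in all settings except the fit without Sham 2 and TAB 3 (0.0878), whereas the symbols of Pde9a, Pde4b and Pde3a fall on both sides of the line.

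The rest of the cyclic nucleotide pathway was read in gene lists, beside the same background of 20.3% called. Among 9 genes of cyclic GMP synthesis and clearance, 7 were tested, of which 3 were higher, 0 lower and 4 not called. These were the nitric oxide synthases Nos3 (10.6 ± 0.811 FPKM in TAB, 8.18 ± 0.594 FPKM in Sham, limma adjusted p = 0.00838) and Nos2 (3.26 ± 0.409 FPKM in TAB, 2.22 ± 0.346 FPKM in Sham, adjusted p = 0.0183), and Gucy1b3, the beta subunit of soluble guanylyl cyclase (9.38 ± 0.577 FPKM in TAB, 7.66 ± 0.535 FPKM in Sham, adjusted p = 0.0230; SD, n = 3 and n = 4 throughout). Each call of Nos2 and Gucy1b3 was lost under some settings (adjusted p up to 0.0675 and 0.0988), including quantile normalization and the fit without TAB 1. That of Nos2 was also lost without TAB 2 (0.0675), and that of Gucy1b3 without Sham 1 (0.0554), without Sham 3 (0.0556) and without both Sham 2 and TAB 3 (0.0659). The natriuretic peptide receptor genes Npr1, Npr2 and Npr3 were not called, with log2 fold changes of 0.07, 0.06 and -0.0030 (adjusted p of 0.631, 0.403 and 0.988 in limma).

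Of 14 genes of cyclic AMP synthesis 10 were tested, of which 2 were higher, 2 lower and 6 not called. Adcy7, an adenylyl cyclase also found in immune cells, had the highest log2 fold change (5.78, 4.28 and 6.32 FPKM in TAB 1 to 3 and 2.57, 2.70, 2.16 and 2.88 FPKM in Sham 1 to 4, 0.84 ± 0.12 SE, limma adjusted p = 0.000845), and the inhibitory G protein subunit gene Gnai3 rose by 0.24 ± 0.06 (adjusted p = 0.0180, and 0.0774 without TAB 1). Adcy9 fell by 0.42 ± 0.09 (adjusted p = 0.00861, and 0.0558 without Sham 2 and TAB 3), and Adcy6, with Adcy5 a main cyclase of cardiomyocytes, fell by 0.22 ± 0.06 (adjusted p = 0.0277), a call lost under 8 of 17 other settings, among them those without TAB 1 (0.113), TAB 3 (0.106), Sham 3 (0.0562), Sham 4 (0.0666) and both Sham 2 and TAB 3 (0.130). Adcy5 itself was not called (-0.18 ± 0.07 SE, adjusted p = 0.0980 in limma), and passed the threshold after quantile normalization (0.0474) and median-of-ratios rescaling (0.0416).

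Of 19 effectors and kinase inhibitors of the pathway 14 were tested, of which 4 were higher, 2 lower and 8 not called. Prkg1, the cyclic GMP-dependent protein kinase, had 5.51, 5.23 and 5.33 FPKM in TAB 1 to 3, against 3.29, 3.70, 3.71 and 3.43 FPKM in Sham 1 to 4 (limma log2 fold change 0.49 ± 0.07 SE, adjusted p = 0.000900). The Popeye gene Popdc3, whose protein binds cyclic AMP, rose by 0.57 ± 0.08 (adjusted p = 0.000899). The protein kinase A inhibitor genes Pkig and Pkia fell by 0.24 ± 0.04 and 0.23 ± 0.05 (adjusted p of 0.00423 and 0.00640 in limma). The other 2 that rose, outside the rule for named genes and chosen after their values were seen, were Prkar1a, a regulatory subunit of protein kinase A (0.26, adjusted p = 0.00894 in limma), and Bves (0.27, adjusted p = 0.0141). Both calls were lost without both Sham 2 and TAB 3 (0.0785 and 0.0688), and that of Bves without TAB 1 (0.0503).

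Of 12 anchoring proteins and partners 11 were tested, of which 0 were higher, 2 lower and 9 not called. Akap1, an anchor at mitochondria, fell by 0.19 ± 0.05 (limma adjusted p = 0.0174, and 0.0566 without TAB 2), and Akap7, an anchor that binds phospholamban, fell by 0.19 ± 0.06 (adjusted p = 0.0348), which was lost under 8 of 17 other settings, among them each single library left out except Sham 4 (0.0576 to 0.0996) and both Sham 2 and TAB 3 left out (0.184). Pde4dip, which encodes myomegalin and no phosphodiesterase, had 332 to 372 FPKM in TAB and 346 to 395 FPKM in Sham. Of 6 CREB family factors and coactivators and of 2 exporters of cyclic nucleotides (Abcc4 and Abcc5) 0 were called by limma in either direction, with unadjusted p under 0.05 for Crem (0.24 ± 0.10 SE) and Crtc3 (0.16 ± 0.07 SE) alone. Crem was called without Sham 3 (limma adjusted p = 0.0383).

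**Figure D5:**
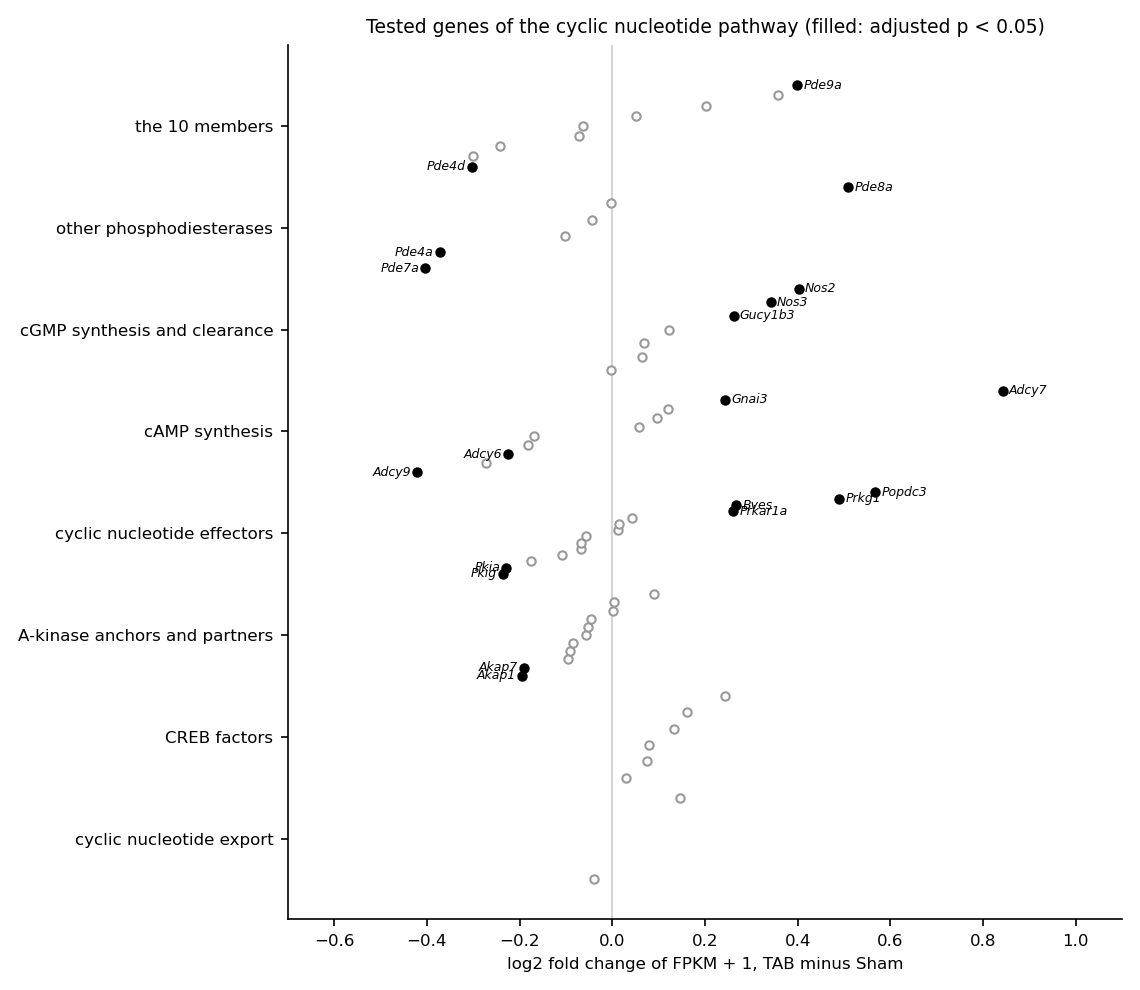
Log2 fold changes of FPKM + 1, TAB minus Sham (horizontal axis), of the tested genes in 8 lists of the cyclic nucleotide pathway (rows, genes spread vertically by value); filled and named points have an adjusted p under 0.05. The farthest point is Adcy7 (0.84), cyclic GMP synthesis holds called genes on the right alone (3 higher), the anchors on the left alone (2 lower), and the CREB factors and exporters hold 0.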

How the data were processed

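The authors deposited 1 table of FPKM values, for which the submitters' processing notes name TopHat, Cufflinks and mm10. Per the labels' protocols the RNA was polyA-selected and the library kit kept strand. Tool versions, the annotation, any normalization across libraries and whether counting used strand: not given in the sources used here. Columns were matched to samples by the column name in each sample's description, and starts were shifted by 1 to count from 1. Depth was read from genes with 1 transcript of 3000 to 6000 bases in GENCODE M21.

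Rows with at least 1 FPKM in at least 3 of 7 libraries were fitted with limma 3.58.1 in R 4.3.3 on log2(FPKM + 1), TAB against Sham, without covariates (eBayes with trend and robust, two-sided, Benjamini-Hochberg over 11601 rows, threshold 0.05). The fit was tested on simulated data with 200 changed genes. It recovered 52%, 82%, 100% and 100% of changes of 1.25, 1.5, 2 and 3-fold in FPKM + 1, with 11 false calls. The changed genes were drawn from higher levels than those of Pde9a, Pde5a and Pde3b, so the simulation does not cover these genes. The 10 genes, and the lists, were chosen with earlier results of these data known. The rule named all 10 genes and, from each list, up to 4 called genes in order of adjusted p. It also named the 2 genes nearest in profile to each called gene, after the exclusions given with them. Other genes are named outside this rule, among them Prkar1a and Bves, and Npr1, Npr2, Npr3, Adcy5, Crem, Crtc3 and Pde4dip, which were not called. In GENCODE M21 exons of Pde2a overlap those of Gm45837 on the same strand (longest overlap 1364 bases), so strand would not tell their reads apart. Exons of Pde3a, Pde5a, Pde7a and Pde9a overlap exons on the opposite strand, and those reads could not be told apart without strand.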

Additional observations from a re-analysis of the deposited data

How the results depend on the processing

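The counts of calls and the fold changes of 43 named genes were refitted under 17 other settings, where a gene passed that setting's filter; marker lists, shares and ratios were not. Of the refitted fold changes 632 kept their direction and side of the threshold, 63 lost a call, 14 gained one and 7 changed sign without a call. Those were Pde5a (-0.0426 after quantile normalization), Npr1 (without TAB 2) and Npr3 (without TAB 2, Sham 2 or Sham 3, 0.00462 with array weights and 0.0126 without both Sham 2 and TAB 3). With 1 library left out Npr1 ranged from -0.00732 to 0.140 and Npr3 from -0.0815 to 0.0422. The number of called genes among the 10 was 2, and it was 1 with no filter and 1 without both Sham 2 and TAB 3 (Pde4d and Pde9a were the 2, Pde4d alone was called with no filter, and Pde1a alone without both libraries). It ranged from 1 to 4 when 1 library was left out. With median-of-ratios rescaling, quantile normalization or a mean of at least 5 FPKM it was 3, namely Pde4d, Pde4b and Pde3a. Over all genes 2360 were called, from 1440 to 2080 with 1 library left out and 1353 without both Sham 2 and TAB 3, where fewer samples were fitted. The split was 1542 higher and 818 lower, against 1126 and 1190 under median-of-ratios rescaling and 1045 and 1225 under quantile normalization, which moved the median log2 fold change of all genes by -0.04 and -0.06. Whether replicate numbers pair the TAB and Sham libraries cannot be told from weak correlations of deviations, which were 0.0807, 0.169 and 0.174 for the same numbers. TAB 2 and TAB 3 correlated most with the Sham library of their own number, whereas TAB 1 correlated more with Sham 3 (0.104). With the replicate number as a block 1892 genes were called, and among the 10 genes the same 2 (adjusted p = 0.0428 for Pde4d and 0.0378 for Pde9a in limma). Sham 4 has no TAB library of its number, so the block takes it out of the comparison and the fold changes equal those without Sham 4. The block ended the calls of Nppa (0.240), Nppb (0.146), Postn (0.0742), Myh7 (0.0635), Gnai3 (0.0735), Adcy6 (0.0790) and Akap7 (0.0747). Pde5a did not pass the filter without TAB 1, TAB 2 or Sham 4. Genes near 1 FPKM, such as Pde5a, Pde9a and Pde10a, rest on fewer fragments than higher genes of like length. By the rough depth estimate 1 FPKM on a transcript of 2 kb is about 22 to 24.6 fragments per library. A count test was not run because the table gives no read numbers.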

Other observations

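The lowest genes of the family lay below the filter and were not tested. Pde1b, the calcium- and calmodulin-activated form best known from brain and immune cells, had 0.868, 1.07 and 0.791 FPKM in TAB 1 to 3, against 0.709, 0.603, 0.545 and 0.731 FPKM in Sham 1 to 4, so that all TAB libraries lay above all Sham libraries. Pde11a had 0.361 to 0.470 FPKM in TAB and 0.192 to 0.708 FPKM in Sham. The photoreceptor genes Pde6a and Pde6c were listed at 0 in every TAB library and at no more than 0.0376 FPKM in any Sham library, and Pde6b was listed at 0 in all 7.

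Among the tested genes that were not called, Pde4c had 2.11 to 2.58 FPKM in TAB and 2.18 to 2.70 FPKM in Sham, Pde7b 6.24 to 8.34 FPKM in TAB and 6.57 to 9.14 FPKM in Sham, and Pde8b 0.747 to 1.29 FPKM in TAB and 1.02 to 1.45 FPKM in Sham. Over all 21 genes the summed FPKM was 118, 116 and 115 in TAB 1 to 3 and 125, 128, 135 and 125 in Sham 1 to 4, without overlap.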
